A study of Mus musculus with 6 samples.

Results

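The mRNA levels and allelic reads of 10 genes of cap-dependent translation were examined in mouse T cells before and after activation. The genes were chosen by name and are Eif4e, Eif4g1, Eif4g2, Eif4g3, Eif4a1, Eif4a2 and Eif4b, which encode the eIF4F cap-binding complex with its relatives and cofactor, and Eif4ebp1, Eif4ebp2 and Pdcd4, which encode its inhibitors. All 10 were found among the 49671 genes of the deposited tables. The stimulated group (day 2) held 3 libraries of CD3+ T cells cultured for 48 h with 1 μg/ml plate-bound anti-CD3 and 10 μg/ml soluble anti-CD28, antibodies that trigger the T cell receptor and its costimulatory receptor. The unstimulated group (day 0) held 3 libraries of CD3+ T cells that went straight from isolation into TRIzol without culture, so stimulation and culture cannot be told apart. All cells came from the spleens of female F1 mus x cast mice, whose mothers were C57BL/6 (mus) carrying a heterozygous Xist deletion and whose fathers were M. m. castaneus (cast). The cast copy of every autosomal gene is therefore the paternal one, and strain and parent of origin cannot be told apart. The sources used here give neither the ages of the mice nor the number of animals behind each library, so the p-values measure the spread between these libraries.

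In eukaryotic cells eIF4E binds the cap at the start of an mRNA, eIF4G is the scaffold that joins eIF4E to the RNA helicase eIF4A and, through eIF3, to the small ribosomal subunit, and eIF4B stimulates the helicase. The eIF4E-binding proteins compete with eIF4G for eIF4E until the kinase complex mTORC1 phosphorylates them, and PDCD4 binds eIF4A and keeps it from the complex until S6 kinase marks PDCD4 for destruction. T cells raise protein synthesis as they leave quiescence, and this control acts largely on the proteins, which these RNA data do not measure.

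Both tables gave 1 column per library and measure. Expression is given as RPKM (reads per kilobase of gene, scaled to the depth of the library), and allelic reads, which could be assigned to mus or cast, numbered 14905853 to 20249376 in stimulated and 9606755 to 11893039 in unstimulated libraries. The labelled cell type was checked with 8 T cell genes, which summed to 596 to 632 RPKM in stimulated and 509 to 594 RPKM in unstimulated libraries. Of these 8 genes, 2 were called higher and 3 lower after stimulation, against 31.2% higher and 48.9% lower of all tested genes. Markers of other cells were lower in the stimulated libraries, where 8 B cell genes summed to 10.8 to 22.6 RPKM (121.7 to 238 unstimulated), 8 myeloid genes to 0.96 to 2.59 RPKM with Adgre1 at 0 (1099 to 3285 unstimulated), 6 NK cell genes to 9.47 to 15.02 RPKM (242 to 341 unstimulated) and 8 erythroid and platelet genes to 2.03 to 14.6 RPKM (80.6 to 1340 unstimulated). All tested genes of these lists were called lower except 1 of 7 erythroid and platelet genes, which was not called. The 6 genes of dividing cells summed to 359 to 365 RPKM in stimulated libraries, against 21.5 and 22.1 RPKM in unstimulated replicates 2 and 1 and 92.2 RPKM in unstimulated replicate 3. The part of other cell types in the levels below was not tested, and in bulk RNA fewer cells of a type and less RNA per cell cannot be told apart.

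Levels of both alleles together were compared first. Eif4ebp1, Eif4a1, Eif4e, Eif4b and Eif4g1 rose after stimulation and Pdcd4 and Eif4a2 fell, while Eif4g2, Eif4g3 and Eif4ebp2 changed by less and their calls depended on scaling or on the table used. In limma with Benjamini-Hochberg adjustment over 13288 genes, 6 of the 10 genes were called higher and 4 lower after stimulation. Most of the transcriptome differed between stimulated and unstimulated libraries, with 80.1% of all tested genes called, 31.2% higher and 48.9% lower, so that being called says little about these genes. The values of the stimulated and unstimulated libraries did not overlap for 9 of the 10 genes, against 83.5% of all genes. A log2 change of at least 1 in either direction was seen for 4 of the 10, against 37.0% of all genes. The median log2 fold change was 0.50 over the 10 genes and -0.24 over all tested genes, a shift that median centring of the libraries removes (0.02), and changes relative to the median gene are therefore given as well.

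**Figure D1:**
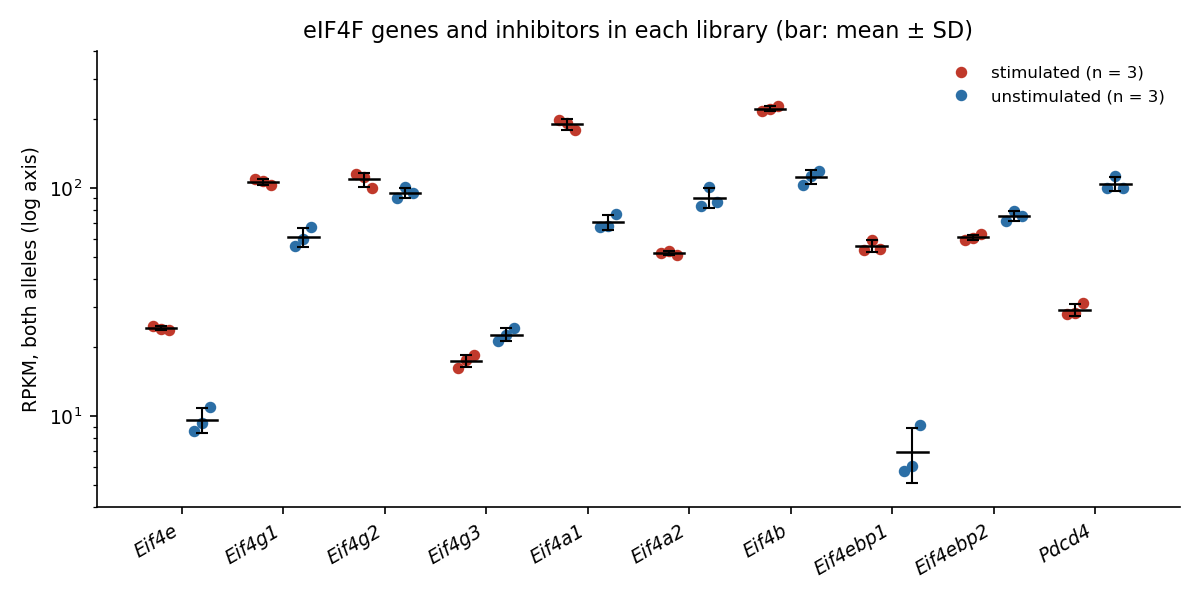
RPKM of both alleles (log axis) for the 10 genes, with 3 stimulated libraries left of 3 unstimulated libraries for each gene. Points are libraries and bars are mean ± SD. Eif4ebp1, at 53.3 to 59.4 RPKM stimulated and 5.74 to 9.16 RPKM unstimulated, is the widest gap, and Eif4g2 is the gene whose groups overlap.

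The promoters of genes that moved apart are shown here because the paralogs Eif4a1 and Eif4a2 went opposite ways, and because Eif4a1, Eif4e, Eif4g1 and Eif4b, the genes of the complex that rose and had a window, moved together. The sequences are the 250 bases before a RefSeq transcript start on GRCm38.p6, which is the mm10 assembly, written 5′ to 3′ on the strand of the gene, and capitals mark the E-box CACGTG, a motif that MYC with MAX and related factors bind. The windows are chr11:69672424-69672673 on the minus strand for Eif4a1, chr3:138527018-138527267 on the plus strand for Eif4e, chr16:20672477-20672726 on the plus strand for Eif4g1, chr15:102073523-102073772 on the plus strand for Eif4b and chr16:23107218-23107467 on the plus strand for Eif4a2.
Eif4a1: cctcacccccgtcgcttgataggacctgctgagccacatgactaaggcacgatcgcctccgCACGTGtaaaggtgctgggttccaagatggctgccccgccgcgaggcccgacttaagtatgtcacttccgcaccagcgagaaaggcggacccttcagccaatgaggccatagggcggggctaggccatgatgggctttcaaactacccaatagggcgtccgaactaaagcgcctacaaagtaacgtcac
Eif4e: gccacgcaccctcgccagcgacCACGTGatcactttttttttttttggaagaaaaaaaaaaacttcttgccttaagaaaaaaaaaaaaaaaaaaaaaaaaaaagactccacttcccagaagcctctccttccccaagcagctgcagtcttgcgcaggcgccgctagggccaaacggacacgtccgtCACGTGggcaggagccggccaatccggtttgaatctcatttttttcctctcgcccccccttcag
Eif4g1: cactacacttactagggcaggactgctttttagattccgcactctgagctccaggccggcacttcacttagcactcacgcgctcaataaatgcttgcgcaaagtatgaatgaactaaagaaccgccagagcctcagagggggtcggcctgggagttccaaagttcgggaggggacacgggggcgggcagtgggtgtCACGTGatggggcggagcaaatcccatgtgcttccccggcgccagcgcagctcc
Eif4b: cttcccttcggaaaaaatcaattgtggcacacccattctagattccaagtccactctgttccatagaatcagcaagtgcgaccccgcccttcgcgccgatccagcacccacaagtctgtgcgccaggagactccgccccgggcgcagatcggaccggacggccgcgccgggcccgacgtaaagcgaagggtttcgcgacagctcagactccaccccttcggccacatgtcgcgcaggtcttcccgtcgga
Eif4a2: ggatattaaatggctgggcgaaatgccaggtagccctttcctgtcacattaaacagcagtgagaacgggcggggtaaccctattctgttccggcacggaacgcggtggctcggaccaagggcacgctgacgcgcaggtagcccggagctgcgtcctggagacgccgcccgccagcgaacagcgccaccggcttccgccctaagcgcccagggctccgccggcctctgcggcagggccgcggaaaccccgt

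Windows of 300 bases, reaching 50 bases past the start, were given for 8 of the 10 genes, and Eif4g2 and Eif4ebp1 were not matched. The letters CACGTG, which read the same on both strands, were in the windows of Eif4a1 (first base at position -189), Eif4e (positions -228 and -64) and Eif4g1 (positions -54 and 16), counted from 1 at the transcript start with no position 0. They were in no window of Eif4b, which also rose, nor of Eif4a2, Eif4g3, Eif4ebp2 and Pdcd4. The Eif4e start farther upstream, whose window began at 138525941, had none and is not printed. The printed windows of Eif4e and Eif4g1 lie inside the annotated genes, which start at 138526179 and 20668313. Which starts these T cells used was not examined. Among all windows given, 7.15% of 32851 windows held the motif, and by gene it was 12.1% of 8457 genes matched to those tested, 11.5% of 2966 that rose and 11.9% of 3843 that fell. The members' matches are a description of these letters and no binding was measured.

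Eif4e encodes the cap-binding subunit and lies on chromosome 3 (138526179 to 138559696, plus strand, GENCODE M21 on mm10, as for all positions of genes here). It had 24.9, 24.2 and 24.0 RPKM in the stimulated libraries, against 8.56, 9.37 and 10.97 RPKM in the unstimulated ones. All stimulated libraries were above all unstimulated ones, with means of 24.3 ± 0.466 RPKM in stimulated and 9.63 ± 1.23 RPKM in unstimulated libraries (SD, n = 3 each). The log2 fold change on log2(RPKM + 1) was 1.26 (SE 0.09, limma adjusted p = 2.3e-05), or 1.502 above the median gene, and 8.68% of all genes rose at least as far. Eif4e remained near the bottom of the 10 genes in level, with only Eif4g3 lower in stimulated and only Eif4ebp1 lower in unstimulated cells by mean RPKM, and the unstimulated libraries of Eif4e and Eif4ebp1 overlapped.

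The 3 eIF4G genes went different ways. Eif4g1, the main scaffold gene (chromosome 16, 20668313 to 20692884, plus strand), had 109.8, 107 and 103 RPKM in stimulated libraries, against 55.6, 59.7 and 67.4 RPKM in unstimulated libraries. The groups were separate, and the gene rose by a log2 fold change of 0.80 (SE 0.08, limma adjusted p = 0.00011). Eif4g3, a second scaffold gene of the same function (chromosome 4, 137993022 to 138208508, plus strand), had 16.3, 17.7 and 18.4 RPKM in stimulated libraries, against 21.3, 22.7 and 24.3 RPKM in unstimulated libraries. Its groups were separate too, with a log2 fold change of -0.36 (SE 0.07, limma adjusted p = 0.0033), but it lay only 0.12 below the median gene and was not called after median centring (log2 -0.10, limma adjusted p = 0.165). Within each library Eif4g1 exceeded Eif4g3 by 6.74, 6.05 and 5.57 times in stimulated cells, against 2.62, 2.63 and 2.78 times in unstimulated cells.

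Eif4g2 encodes a relative of eIF4G that lacks the site for eIF4E and works in other modes of initiation (chromosome 7, 111067750 to 111083030, minus strand). It had 115, 112 and 100.5 RPKM in stimulated libraries, against 90.9, 100.6 and 94.9 RPKM in unstimulated libraries. The lowest stimulated library was level with the highest unstimulated one, and the log2 fold change of 0.19 (SE 0.07, 95% interval 0.01 to 0.37) was called by a narrow margin (limma adjusted p = 0.0483). The call was lost without stimulated replicate 1 (limma adjusted p = 0.150) or 2 (0.148), without unstimulated replicate 1 (0.121) or 3 (0.0709), after quantile normalisation (log2 0.07, limma adjusted p = 0.304) and with no filter on low values (limma adjusted p = 0.0692). It was kept after median centring (log2 0.45, limma adjusted p = 0.0022) and with a pseudocount of 0.1 (0.0479). Leaving out stimulated replicate 3 (limma adjusted p = 0.0246) or unstimulated replicate 2 (0.0459) also kept it. Reads assigned to an allele gave the opposite direction, as described with the allelic reads below, so the direction of Eif4g2 is unsettled.

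Eif4a1 and Eif4a2 encode nearly identical helicases and exchanged rank. Eif4a1 (chromosome 11, 69666936 to 69672423, minus strand) had 199, 194 and 179 RPKM in stimulated libraries, against 67.3, 68.2 and 77.2 RPKM in unstimulated libraries. The groups were far apart, and the log2 fold change was 1.42 (SE 0.08, limma adjusted p = 7.6e-06), which 6.83% of all genes reached. Eif4a2 (chromosome 16, 23107444 to 23114136, plus strand) had 51.9, 52.8 and 51.0 RPKM in stimulated libraries, against 83.7, 101.0 and 87.1 RPKM in unstimulated libraries. It fell by 0.79 on the log2 scale (SE 0.08, limma adjusted p = 0.00011) and lay 0.54 below the median gene. The ratio of Eif4a1 to Eif4a2 was 3.83, 3.67 and 3.51 in the stimulated libraries, against 0.804, 0.675 and 0.886 in the unstimulated ones, so that Eif4a1 was the more abundant in each stimulated library and Eif4a2 in each unstimulated library.

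Reads of the eIF4A genes have limits of assignment, which are not particular to them. Genes of small RNAs also lie on the same strand inside Eif4e, Eif4g1, Eif4g2 and Eif4g3, a sense intronic gene inside Eif4ebp2 and an antisense gene inside Eif4g3. Of these, Snord66 in Eif4g1 (log2 -1.69, limma adjusted p = 0.0060) and Mir6399 in Eif4g3 (log2 -2.73, limma adjusted p = 7.0e-05) were called lower. The annotation places 3 snoRNA genes inside Eif4a1 and 5 snoRNA genes with 1 miRNA gene inside Eif4a2, all on the strand of the host, and the end of Rfc4, a replication factor gene, overlaps Eif4a2 by 194 bases on the opposite strand. Rfc4 rose to 29.7 ± 2.31 RPKM in stimulated libraries, against 6.40 ± 3.46 RPKM in unstimulated libraries (SD, n = 3 each, log2 2.15, limma adjusted p = 0.00062), while Eif4a2 fell. Inside Eif4a1, the snoRNA gene Gm25835 had 8.15 ± 1.15 RPKM in stimulated and 30.2 ± 4.58 RPKM in unstimulated libraries (log2 -1.77, limma adjusted p = 3.0e-05), while Eif4a1 rose. Inside Eif4a2, the snoRNA gene Gm24616 was called lower too (log2 -0.84, limma adjusted p = 0.0056). The sources used here do not say whether strand was used in counting. The processed pseudogene Eif4a-ps4 (chromosome 1, 60703932 to 60705149) was listed at 13.0 ± 1.13 RPKM in stimulated and 4.31 ± 0.619 RPKM in unstimulated libraries (SD, n = 3 each, log2 1.40, limma adjusted p = 3.5e-05), a change of the size of that of Eif4a1. Reads that the gene and such copies share could have been split between them, and their part was not tested.

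Eif4b, the gene of the helicase cofactor (chromosome 15, 102073773 to 102097173, plus strand), was the most abundant of the 10 in both groups. It had 217, 223 and 229 RPKM in stimulated libraries, against 103, 113 and 119 RPKM in unstimulated libraries. The groups were separate, with means of 223 ± 6.30 RPKM in stimulated and 112.0 ± 7.95 RPKM in unstimulated libraries (SD, n = 3 each) and a log2 fold change of 0.99 (SE 0.07, limma adjusted p = 2.4e-05).

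Among the inhibitors, the genes of the binding proteins for eIF4E differed sharply. Eif4ebp1 (chromosome 8, 27260329 to 27276674, plus strand) had 53.3, 59.4 and 54.2 RPKM in stimulated libraries, against 5.74, 6.04 and 9.16 RPKM in unstimulated libraries. Every stimulated library was above every unstimulated one, and the log2 fold change of 2.85 (SE 0.16, limma adjusted p = 8.2e-06) was reached by 1.10% of all genes. Unstimulated replicate 3, in which genes of dividing cells were also highest, had the highest unstimulated value. Of the unstimulated libraries it was also highest for Eif4e, Eif4g1, Eif4g3, Eif4a1 and Eif4b. The same held for the summed B cell, myeloid, NK cell, and erythroid and platelet genes. Eif4g2, Eif4a2, Eif4ebp2 and Pdcd4 were highest in unstimulated replicate 2. Eif4ebp2 (chromosome 10, 61428491 to 61452661, minus strand) had 59.4, 60.3 and 62.6 RPKM in stimulated libraries, against 71.7, 79.4 and 75.3 RPKM in unstimulated libraries. Its groups did not overlap and the log2 fold change was -0.31 (SE 0.06, limma adjusted p = 0.0024), but it lay 0.06 below the median gene and was not called after median centring (log2 -0.05, limma adjusted p = 0.555). Eif4ebp1 was thus at 0.897, 0.985 and 0.866 of the level of Eif4ebp2 in stimulated libraries, against 0.0801, 0.0761 and 0.122 in unstimulated libraries.

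Pdcd4, the gene of the helicase inhibitor (chromosome 19, 53892231 to 53929860, plus strand), fell most of the 10. It had 28.03, 28.4 and 31.3 RPKM in stimulated libraries, against 99.8, 112 and 100.3 RPKM in unstimulated libraries. The highest stimulated library was far below the lowest unstimulated one, with a log2 fold change of -1.80 (SE 0.07, limma adjusted p = 2.8e-06), or -1.55 relative to the median gene, and 9.78% of all genes fell at least as far. Relative to the summed level of Eif4a1 and Eif4a2, Pdcd4 stood at 0.112, 0.115 and 0.136 in stimulated libraries, against 0.661, 0.664 and 0.610 in unstimulated libraries. In unstimulated cells Pdcd4 was second only to Eif4b by mean RPKM among the 10 genes, with values that overlapped those of Eif4b, Eif4g2 and Eif4a2. In stimulated cells Pdcd4 was eighth, below Eif4a2 and above Eif4e with no overlap.

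Ratios within a library do not depend on how that library was scaled, and all 6 that were compared had separate groups. Single genes had separate groups for 83.5% of all tested genes, and ratios of other genes were not compared, so the separation says little about these members. The log2 differences (stimulated minus unstimulated) were 3.34 (SE 0.22) for Eif4ebp1 over Eif4ebp2, 2.23 (SE 0.12) for Eif4a1 over Eif4a2, 1.19 (SE 0.08) for Eif4g1 over Eif4g3 and 0.62 (SE 0.09) for Eif4g1 over Eif4g2. The level of Eif4e relative to the summed binding protein genes was 0.209 ± 0.00994 in stimulated and 0.117 ± 0.0114 in unstimulated libraries (SD, n = 3 each), a log2 difference of 0.85 (SE 0.09). Pdcd4 over the eIF4A genes differed by -2.42 (SE 0.10). Each exact two-sided permutation test gave p = 0.1, the smallest that 3 against 3 libraries allow, and the Benjamini-Hochberg value over the 6 ratios was also 0.1, so no ratio could pass a threshold of 0.05. On summed allelic counts, which are not per length, the log2 difference was -0.80 for Eif4e over the binding protein genes. This is opposite in sign to that from RPKM. Eif4ebp1 had 16986 allelic reads in stimulated and 1102 in unstimulated libraries, and Eif4ebp2 had 5857 and 4317. The binding protein genes thus weigh differently in that sum than in RPKM, and the part of this in the change of sign was not tested. On the same counts the log2 difference was 2.66 for Eif4g1 over Eif4g2, 1.05 for Eif4a1 over Eif4a2 and -1.34 for Pdcd4 over the eIF4A genes. Eif4g2, Eif4a1 and Eif4e are the members whose RPKM and allelic reads moved apart, as described with the allelic reads below.

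**Figure D2:**
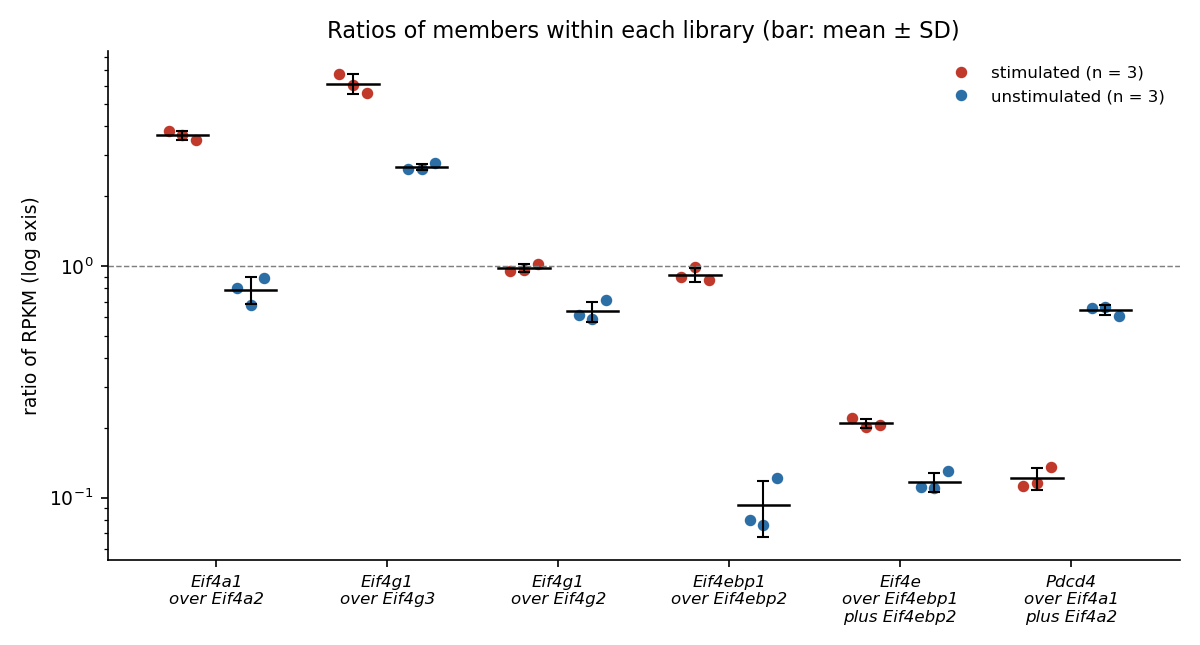
Ratios of RPKM between members within each library (log axis), with 3 stimulated libraries left of 3 unstimulated libraries and bars of mean ± SD. Eif4a1 over Eif4a2 lies above 1 in each stimulated library (3.51 to 3.83) and below 1 in each unstimulated library (0.675 to 0.886).

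Genes with the most similar pattern over the 6 libraries were looked up among all tested genes, by the distance between log2(RPKM + 1) values centred on the mean of each gene. Nearest to Eif4a1 were Mrps27, a mitochondrial ribosomal protein gene (distance 0.052), Strap (0.070) and Uqcrfs1, a respiratory chain gene (0.078). Nearest to Eif4e were P4hb, a protein disulfide isomerase gene (0.050), Timm9, of mitochondrial import (0.068), and Hspa14 (0.078). The genes nearest to Pdcd4 were Trim5 (0.104), F2rl1, a protease-activated receptor gene (0.108), and Slc25a2 (0.117). Their mean levels were far lower, at 3.72, 2.49 and 0.365 RPKM stimulated and 15.7, 11.5 and 3.83 RPKM unstimulated, against 29.2 and 104 RPKM for Pdcd4. The 1 added to RPKM shrinks changes more at such levels, so their fold changes in RPKM were larger than that of Pdcd4. The distances describe 6 libraries in 2 groups and are dominated by the change between the groups.

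Related genes of translation were then counted, in lists chosen with earlier results of these data known. Subunits of eIF3, which links eIF4G to the ribosome, were called higher for 13 of 14 genes and lower for none (median log2 0.84), led by Eif3c (168 ± 8.61 RPKM stimulated, 52.0 ± 4.63 RPKM unstimulated, SD, n = 3 each, log2 1.68) and Eif3d (142 ± 1.98 RPKM stimulated, 51.7 ± 2.32 RPKM unstimulated, log2 1.44), while Eif3f was not called (log2 0.12, limma adjusted p = 0.0969). All genes tested had 31.2% called higher. Relatives of eIF4E and 4E partners were called higher for 4 and lower for 4 of 13 tested genes (median log2 0.11). Larp1, whose protein binds the caps of mRNAs of the translation machinery (log2 1.38), and Eif4enif1, the eIF4E transporter gene (log2 1.33), rose most, and Gigyf1, a partner of the cap-binding repressor gene Eif4e2 (log2 -1.69), and Eif4ebp3, the third binding protein gene (0.628 ± 0.212 RPKM stimulated, 2.93 ± 0.159 RPKM unstimulated, log2 -1.28), fell most. Eif4e2 and Eif4e3 themselves were not called (log2 -0.12 and 0.12, limma adjusted p = 0.169 and 0.247).

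Poly(A)-binding proteins, which hold the tail of the mRNA to eIF4G, showed rises of Pabpc4 (log2 1.44) and Pabpc1 (382 ± 24.4 RPKM stimulated, 250.2 ± 18.2 RPKM unstimulated, SD, n = 3 each, log2 0.61). In the same list of 7 genes the eIF4E kinase gene Mknk1 (log2 -0.78) and Paip2, a repressor of the poly(A)-binding protein (log2 -0.54), fell most among 4 falls. Of 15 tested genes of mTORC1, its regulators and the S6 kinases, 5 were called higher and 7 lower (median log2 -0.08), shares close to the 31.2% higher and 48.9% lower of all genes, with the largest rises for Tbc1d7 (log2 1.63) and Rraga (log2 0.58) and the largest falls for Tsc1, the gene of an mTORC1 inhibitor (log2 -0.97), and Rptor, the gene of an mTORC1 subunit (log2 -0.90). Of the adaptors that lead PDCD4 to degradation, Fbxw11 rose (log2 0.46) and Btrc fell (log2 -0.64). Over all lists 25 of 51 tested genes were called higher and 16 lower, and their median was 0.14 on the log2 scale, where that of all genes was -0.24. Without the eIF3 subunits 12 of 37 tested genes were called higher and 16 lower, against 31.2% higher and 48.9% lower among all genes.

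**Figure D3:**
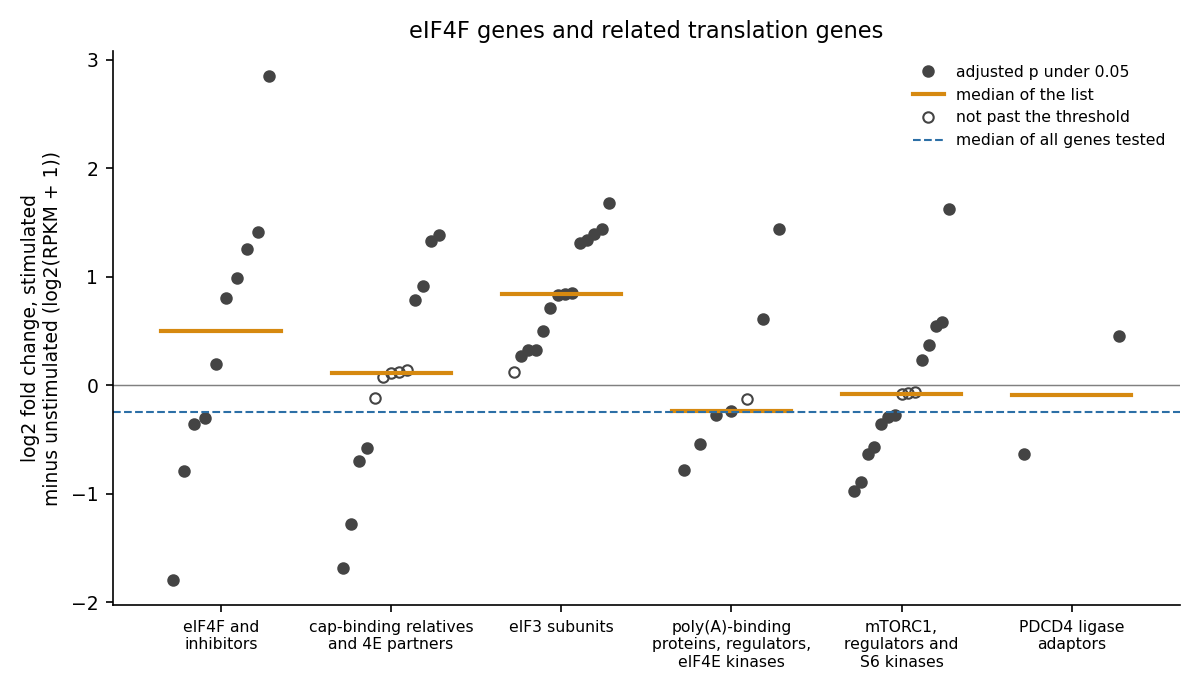
Log2 fold changes (stimulated minus unstimulated, on log2(RPKM + 1)) of the 10 genes and of 5 lists of related genes, ordered by size within a list. Filled points passed an adjusted p of 0.05 in limma, orange bars are list medians (0.50 for the 10 genes, 0.84 for eIF3), and the dashed line is the median of all genes at -0.24.

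Reads assigned to an allele were compared next, to ask whether both copies of these genes responded alike. Over all autosomal genes, cast took 49.3% to 49.4% of the reads of each library. A change of the cast share between stimulated and unstimulated cells was tested with edgeR (quasi-likelihood, allele by group) over 12470 autosomal genes, of which 10.9% were called, 6.01% with a higher and 4.89% with a lower share after stimulation. Of the 10 genes 3 were called, Pdcd4 and Eif4g1 with a higher and Eif4a1 with a lower cast share. The shares of the stimulated and unstimulated libraries did not overlap for 6 of the 10 genes, against 28.4% of all genes. Eif4g3, Eif4a2 and Eif4b were among these 6 but were not called (edgeR adjusted p = 0.235, 0.263 and 0.251). The overlap takes no account of depth, and the genes tested needed only 30 allelic reads summed over a group.

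Eif4a1 had the largest allelic difference of the 10. The cast allele gave 151 of 1125, 168 of 1305 and 192 of 1164 allelic reads in the stimulated libraries, a share of 13.4%, 12.9% and 16.5%. It gave 220 of 675, 192 of 478 and 240 of 646 reads in the unstimulated libraries, a share of 32.6%, 40.2% and 37.2%. The highest stimulated share had a 95% exact binomial interval of 14.4% to 18.8%, and the lowest unstimulated share one of 29.1% to 36.3%, intervals that cover counting error only. The mean share was 14.3% ± 1.95 in stimulated and 36.6% ± 3.81 in unstimulated libraries (SD, n = 3 each), and the log2 ratio of cast to mus differed by -1.79 (edgeR adjusted p = 2.6e-06), a size that 4.07% of autosomal genes reached. The cast allele was also the lower one within each group (log2 -2.55 stimulated, edgeR adjusted p = 9.7e-11, and -0.76 unstimulated, edgeR adjusted p = 0.00012).

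Taken allele by allele, mus reads of Eif4a1 numbered 118.5 ± 18.98 RPM (reads per 1000000 autosomal reads of that allele) in stimulated and 69.0 ± 8.53 in unstimulated libraries (SD, n = 3 each), and cast reads 19.97 ± 0.910 RPM in stimulated and 40.7 ± 2.11 in unstimulated libraries. On this scale mus reads were thus higher and cast reads lower in all stimulated libraries than in all unstimulated ones. These reads are a thin sample of the gene, since stimulated libraries held 0.366 ± 0.0331 and unstimulated ones 0.779 ± 0.0727 RPM of allelic reads (here scaled to the autosomal reads of both alleles) for each RPKM (SD, n = 3 each), where Eif4g1 had 9.05 ± 0.0684 in stimulated and 7.93 ± 0.148 in unstimulated libraries. The sources used here do not say which positions of the gene carry the allelic reads. Since the number of these reads for each RPKM differed between the groups, a fall of the cast copy in level was not settled. Of the allelic reads of the pseudogene Eif4a-ps4, 116 of 522 were cast in stimulated and 21 of 76 in unstimulated libraries. The part of reads shared with such copies in the share of Eif4a1 was not tested.

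Pdcd4 shifted the other way while its level fell. The cast share was 57.6%, 52.9% and 56.4% of 741, 796 and 1217 reads in stimulated libraries. It was 45.2%, 46.2% and 45.2% of 1891, 1817 and 1937 reads in unstimulated libraries. Stimulated libraries were all above the unstimulated ones, with 95% exact intervals of 49.4% to 56.4% for the lowest stimulated share and 43.9% to 48.6% for the highest unstimulated share. The mean share was 55.6% ± 2.45 in stimulated and 45.5% ± 0.599 in unstimulated libraries (SD, n = 3 each), with a log2 change of 0.59 (edgeR adjusted p = 0.0016). Mus reads numbered 45.8 ± 6.16 RPM in stimulated and 188 ± 15.6 in unstimulated libraries, and cast reads 59.3 ± 10.9 RPM in stimulated and 161 ± 17.1 in unstimulated libraries (SD, n = 3 each), so both copies were read less often in all stimulated libraries. The copy read more often was cast in stimulated cells (log2 0.37, edgeR adjusted p = 0.0017) and mus in unstimulated cells (log2 -0.22, edgeR adjusted p = 0.031), the unstimulated call being lost when any 1 unstimulated library was left out (edgeR adjusted p = 0.0794 to 0.130) and with DESeq2 (adjusted p = 0.0921).

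Eif4g1 changed by 2.80 percentage points, from deep counts. Its cast share was 50.7% ± 0.594 in stimulated and 47.9% ± 1.13 in unstimulated libraries (SD, n = 3 each, log2 change 0.16, edgeR adjusted p = 0.049). This call was lost with DESeq2 (adjusted p = 0.139), with TMM factors (edgeR adjusted p = 0.0918) and when any 1 of the 6 libraries was left out (adjusted p = 0.0520 to 0.157). The other 7 genes were not called for a change of share, with log2 changes from -0.18 for Eif4a2 to 0.24 for Eif4ebp1. Eif4b, with the most allelic reads of the 10 (67266 stimulated, 18317 unstimulated), had shares of 50.7% ± 0.766 in stimulated and 49.2% ± 0.454 in unstimulated libraries (SD, n = 3 each, edgeR adjusted p = 0.251). Eif4e had the fewest (958 stimulated, 400 unstimulated) and shares of 49.2% ± 7.06 in stimulated and 49.8% ± 11.04 in unstimulated libraries, so that a change of several points was not detectable at this depth.

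**Figure D4:**
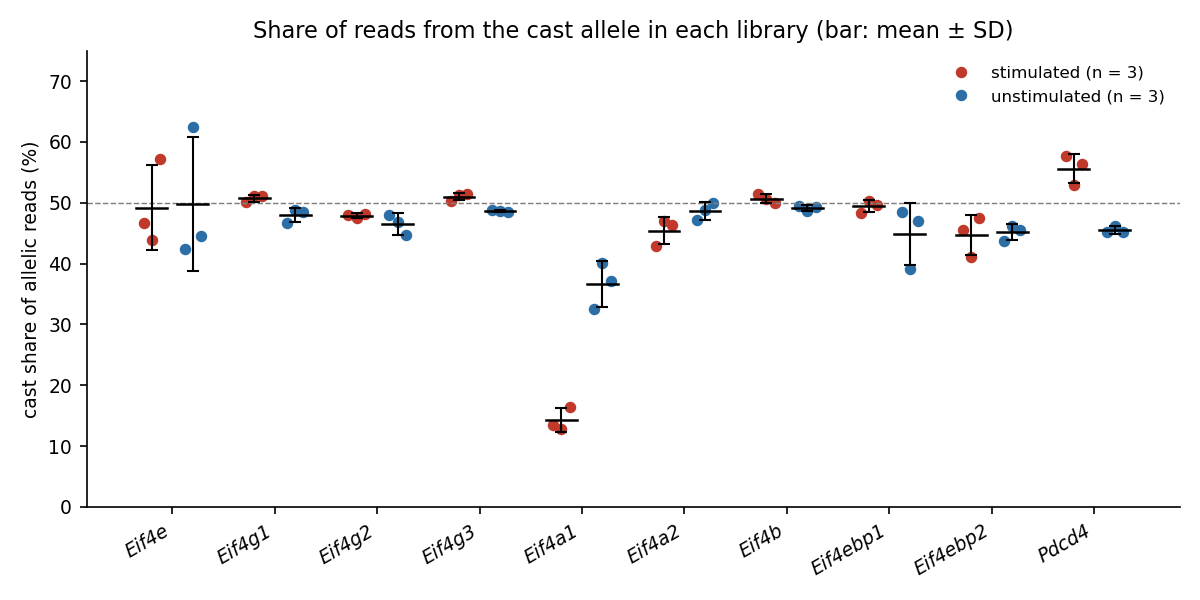
Cast share of allelic reads (%) for the 10 genes, with 3 stimulated libraries left of 3 unstimulated libraries, bars of mean ± SD and a dashed line at 50%. Eif4a1 lies at 12.9% to 16.5% stimulated and 32.6% to 40.2% unstimulated, and the other 9 genes stay between 39.1% and 62.5% in every library.

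Within a group, a share away from that of all autosomal reads was called for 4 of the 10 genes in stimulated cells and for 4 in unstimulated cells. In stimulated cells Pdcd4 alone of the 10 was called with more cast reads, where 17.3% of all genes were, and Eif4a1, Eif4ebp2 and Eif4a2 with fewer, where 18.3% were. Eif4ebp2 had a share of 44.7% ± 3.22 (edgeR adjusted p = 0.013) and Eif4a2 one of 45.4% ± 2.20 (adjusted p = 0.015) there (SD, n = 3 each). These calls were lost in edgeR without stimulated replicate 2 for Eif4ebp2 (adjusted p = 0.198) and without stimulated replicate 1 for Eif4a2 (adjusted p = 0.153). In unstimulated cells none of the 10 was called with more cast reads, where 13.7% of all genes were, and Eif4a1, Eif4ebp2, Pdcd4 and Eif4g2 with fewer, where 15.9% were. Eif4ebp2 stood at 45.2% ± 1.29 (edgeR adjusted p = 0.030) and Eif4g2 at 46.5% ± 1.74 (adjusted p = 0.037), and both of these calls were lost with DESeq2 (adjusted p = 0.0779 and 0.112) and in edgeR without unstimulated replicate 2 or 3, and for Eif4ebp2 also without unstimulated replicate 1 (adjusted p = 0.0542 to 0.264).

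Set against RPKM, allelic reads gave the same direction of change in level for 9 of the 10 genes and the opposite one for Eif4g2, where 11.7% of 12357 genes compared had opposite signs. Mus reads of Eif4g2 numbered 97.8 ± 5.31 RPM in stimulated libraries, against 317 ± 11.9 in unstimulated libraries, and cast reads 92.2 ± 3.68 in stimulated against 282 ± 11.5 in unstimulated libraries (SD, n = 3 each). In edgeR on mus and cast reads summed, with TMM factors, its log2 fold change was -1.46 (adjusted p = 5.3e-07), where RPKM gave 0.19. Allelic reads in RPM on that joint scale, for each RPKM, were 0.834, 0.885 and 0.897 in stimulated libraries, against 3.25, 3.04 and 3.14 in unstimulated libraries. After allowing for the median gene, the log2 fold change from allelic reads minus that from RPKM was -1.94, and 6.69% of genes were as far apart. Both alleles of Eif4g2 moved alike, with cast shares of 47.9% ± 0.384 in stimulated and 46.5% ± 1.74 in unstimulated libraries. For Eif4a1 and Eif4e allelic reads gave smaller rises (log2 0.54 and 0.80, edgeR with TMM factors) than RPKM (1.42 and 1.26), a difference of -1.17 and -0.75 after the same allowance. The other 7 genes lay within 0.33. Which reads of a gene could be assigned to an allele was not examined here, and the cause was not tested.

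**Figure D5:**
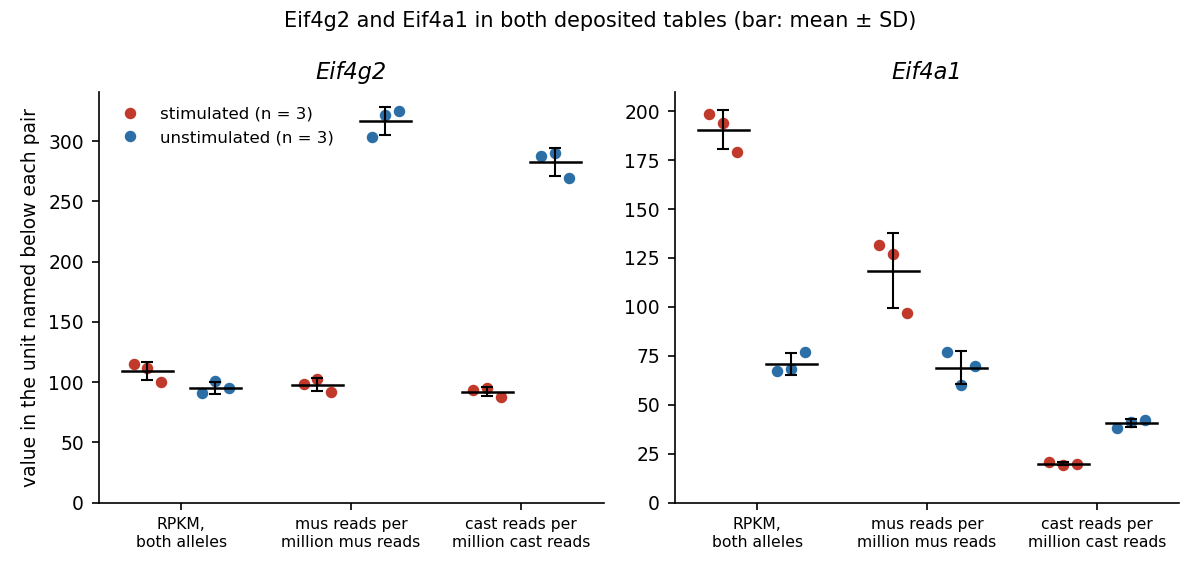
Eif4g2 and Eif4a1 in both deposited tables, as RPKM of both alleles and as mus or cast reads scaled to the reads of that allele (RPM), with 3 stimulated libraries left of 3 unstimulated libraries and bars of mean ± SD. Eif4g2 is similar in RPKM but lower in stimulated libraries for both alleles, and Eif4a1 is higher in RPKM and in mus reads but lower in cast reads.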

How the data were processed

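The submitters' processing notes name STAR 2.7.1a, featureCounts without a version and the mm10 build. The authors deposited RPKM of both alleles together and whole-number counts of reads per gene assigned to mus or cast, 1 column per library and allele, per the file headers. The sources used here do not give the gene annotation and lengths, the strand setting, the treatment of reads with several matches, the RPKM denominator or the allele assignment. The kit was a stranded one for total RNA with removal of ribosomal RNA, per the labels' protocols.

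From these, log2(RPKM + 1) was compared with limma 3.58.1 (trend, two-sided) in R 4.3.3 over genes that reached 1 RPKM in 3 or more libraries. Cast and mus counts were compared with edgeR 4.0.16 (quasi-likelihood, two-sided, 1 term per library, library sizes from autosomal totals) over autosomal genes whose allelic reads summed to 30 or more in stimulated and in unstimulated libraries. The Benjamini-Hochberg adjustment ran over all genes of a fit, and the threshold was 0.05. Both fits were also run on simulated data in which a small part of the genes changed, with rises and falls in equal number. In these data most genes were called in level, so the simulation does not check the scaling. Ratios were compared with exact permutation tests. Alternatives included DESeq2 1.42.0, other scalings and filters, and leaving out each library. Equal replicate numbers deviated together in allelic ratios (correlation across 9043 genes 0.28, 0.30 and 0.18), and so pair those, but not in levels (0.0060, 0.061 and 0.091).

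All 10 genes are named. In related lists the 2 largest rises and the 2 largest falls are named, with others chosen after their values were seen, and 3 nearest patterns for each of Eif4a1, Eif4e and Pdcd4. The genes and lists were chosen with earlier results of these data known.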

Additional observations from a re-analysis of the deposited data

Results flagged for a closer look

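The effect of the allele differed between stimulated and unstimulated cells for 3 of the 10 genes by the edgeR test of that difference. Among all 12470 autosomal genes tested, 10.9% were called. The log2 ratio of cast to mus reads changed by -1.79 for Eif4a1, whose cast share was below the autosomal share in both groups and lower in stimulated cells, by 0.59 for Pdcd4, whose more often read copy was cast in stimulated and mus in unstimulated cells, and by 0.16 for Eif4g1. Over all alternatives run the change for Eif4a1 stayed between -1.92 and -1.69 (adjusted p at most 7.1e-05) and that for Pdcd4 between 0.53 and 0.67 (adjusted p at most 0.011), whereas the call for Eif4g1 was lost under 8 of its alternatives. No cause of these differences was tested.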

How the results depend on the processing

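Eif4ebp1, Eif4a1, Eif4e, Eif4b, Eif4g1, Eif4a2 and Pdcd4 kept the direction and the call of their level under all 14 alternatives. Median centring left 2 of the 10 genes called lower, Eif4a2 and Pdcd4. On summed allelic counts Eif4g3 and Eif4ebp2 were not called either, with edgeR and TMM factors (-0.092 and -0.048) or with DESeq2 (-0.14 and -0.095). Eif4g2 was reversed on summed allelic counts, at -1.46 with edgeR and TMM factors, -1.66 with library totals alone and -1.505 with DESeq2, and ranged from 0.15 to 0.25 when 1 library was left out. Eif4e over the summed binding protein genes turned to a log2 difference of -0.80 on summed allelic counts (cause not tested), where 3 of the other ratios kept their direction but moved by over 1.5 times. With the replicate number as a block 5 of the 10 genes were called higher and 4 lower in level, Eif4g2 not being called (limma adjusted p = 0.0761), and the paired ratios gave the same differences (exact p = 0.25, the smallest for 3 pairs). The same block called 938 autosomal genes with a higher and 766 with a lower cast share, against 749 and 610 without it, and changed no call among the 10 genes for the share.

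For the cast share, 1 of the 10 genes was called higher with DESeq2, with TMM factors and without any 1 library (1 in each). Among all autosomal genes 560 were called higher with DESeq2, 685 with TMM factors and 543 to 616 without any 1 library. Without these changes it was 749. Within stimulated libraries 1 to 2 were called with more cast reads, and within unstimulated libraries 1 (DESeq2), 1 to 4 (leaving out a library) and 6 (equal library sizes of both alleles) with fewer, the last adding Eif4g1 (edgeR adjusted p = 0.0217) and Eif4ebp1 (adjusted p = 0.0428). Among all autosomal genes, 1680 to 2309 were called with more within stimulated libraries, against 2154 without these changes. Within unstimulated libraries 1558 (DESeq2), 1468 to 1930 (leaving out a library) and 2312 (equal library sizes) were called with fewer, against 1985. The remaining sign changes concern values that were not called under any alternative. For Eif4e the change of share was -0.0081 with DESeq2, -0.0100 with TMM factors and -0.23 to 0.34 on leaving out a library. Its cast to mus ratio within stimulated libraries was -0.0015 with DESeq2, -0.035 with equal library sizes and -0.24 to 0.16 on leaving out a library, and within unstimulated libraries 0.0066 with DESeq2 and -0.34 to 0.19 on leaving out a library. Eif4ebp1 within stimulated libraries gave -0.034 with equal library sizes and -0.017 to 0.035 on leaving out a library. Eif4ebp2 ranged from -0.11 to 0.081 for the change of share and Eif4b from -0.023 to 0.0034 within unstimulated libraries. Eif4e had the fewest allelic reads of the 10 genes and the widest spread of shares between libraries, and the share of Eif4a1 rests on few reads for its level.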
